A study of Schizosaccharomyces pombe with 6 samples.

Results

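DNA duplex unwinding is the Gene Ontology process term for enzymes and complexes that separate the strands of DNA. It was followed here in *Schizosaccharomyces pombe*, in which WT was compared with *htb1-K119R* (H2BK119R in the sample labels) by RNA-seq of poly(A) RNA, with 3 libraries per genotype. The genes were chosen as those carrying the term in the annotation of the deposited table, without the chromatin remodeling ATPases and the subtelomeric helicase copies. Of 5184 genes in the table, 42 carry the term. The rule leaves out 8 remodelers and 3 subtelomeric copies, which leaves 31 genes. The term was selected because it held many raised genes in this same contrast of WT and *htb1-K119R*, so the fold changes and calls of these 31 genes are given as a description, with no test of the group. The first check concerns the label, since only 2 of the 6 MCM genes, *mcm3*+ and *mcm5*+, carry the term, and the group also holds non-helicases such as the Ku proteins, Nbs1, and the recombinase Dmc1.

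Both strains carry the *ura4-D18* deletion. The *htb1-K119R* strain expresses as its sole histone H2B a protein with arginine in place of the lysine that is monoubiquitinated (H2Bub), and its *htb1* locus carries the kanMX6 marker. In the study's strain list, WT is h+ and carries *ade6-M216* and *leu1-32*, whereas the mutant is h-. Mating type, both auxotrophic markers, and kanMX6 therefore differ together with the H2B mutation and cannot be told apart from it. Each genotype is a single strain, and the study describes the libraries as independent biological repeats. The growth medium of the RNA-seq cultures is not given in the sources used here.

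The series as a whole set the following limits. Library totals lay between 15987167 and 20701391 counts. WT replicate 3 stood apart from the other WT libraries on the second principal component, which held 17.6% of the variance. *htb1*+ was counted between 24421 and 32936 times per library, and its log2 fold change was -0.26 (SE 0.171), which did not pass the test. A count of the gene cannot tell the mutant codon from the WT codon, so it does not check the labels. *ura4*+ had 0 counts in all 6 libraries. Of the 7 meiotic markers in the table, 2 passed the test as raised (*spo5*+ and *spo6*+), with the summed level between 16.01 and 18.22 CPM in WT and between 23.1 and 28.8 CPM in *htb1-K119R*, and *mde2*+ was at 0 in every WT library. The summed level of the 6 M mating-type markers was between 34.3 and 60.8 CPM in WT and between 46.0 and 62.5 CPM in *htb1-K119R*, with *mat1-Mi* at 0 throughout and none of the M markers called. Of the 4 P mating-type markers listed, 2 are in the table, with a summed level between 9.91 and 11.7 CPM in WT and between 11.1 and 15.6 CPM in *htb1-K119R*, and *map2*+ passed the test as raised. The other P marker, *map3*+, had a log2 fold change of -0.23 (SE 0.177) and did not pass, though each mutant library was below each WT library. Among the M markers, *mfm1*+, *mfm3*+, and *mat1-Mi* did not enter the test. Thus the summed M markers overlapped between the strains, and the 2 P markers went in opposite directions. These levels therefore do not settle whether the libraries follow the mating types listed for the strains. The part of these differences in the values below was not tested.

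DNA helicases use ATP to move along nucleic acid and part base pairs. In eukaryotic replication the CMG helicase, made of Cdc45, the MCM ring, and the GINS complex, travels ahead of the DNA polymerases. A second set of helicases and translocases acts where forks stall or DNA breaks. RecQ and FANCM-type enzymes process stalled forks and recombination intermediates, Snf2-type translocases such as Rad54 and Rad5 relatives move along duplex DNA and remodel protein-DNA complexes, and Srs2 and Fbh1 limit recombination. H2Bub itself is known for its roles in transcription elongation and in the repair of broken DNA.

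The sequences upstream of the genes with the largest increases are shown because the results turn on these genes. They come from the RefSeq genome ASM294v3 by gene ID, end at the base before the annotated start, and are written from 5′ to 3′ on the strand of the gene, with any CGCG in capitals. The build behind the deposited table is named only by its Ensembl release, so positions refer to ASM294v3 alone. The *rad8*+ sequence lies at chrI:174693-174864 on the minus strand and is 172 bases long, since a further coding gene begins beyond it. The *rrp2*+ sequence is at chrII:3839369-3839568 and the *fml1*+ sequence at chrI:1470634-1470833, both on the plus strand. The bases upstream of *hrq1*+ lie inside the neighboring gene SPAC26H5.02c and are not shown.
rad8: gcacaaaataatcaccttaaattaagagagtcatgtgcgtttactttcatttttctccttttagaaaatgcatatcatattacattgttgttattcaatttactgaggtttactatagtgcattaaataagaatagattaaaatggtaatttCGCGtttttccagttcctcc
rrp2: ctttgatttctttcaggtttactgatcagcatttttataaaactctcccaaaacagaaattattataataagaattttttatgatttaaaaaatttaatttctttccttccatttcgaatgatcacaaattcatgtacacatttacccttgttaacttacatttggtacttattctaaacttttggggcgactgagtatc
fml1: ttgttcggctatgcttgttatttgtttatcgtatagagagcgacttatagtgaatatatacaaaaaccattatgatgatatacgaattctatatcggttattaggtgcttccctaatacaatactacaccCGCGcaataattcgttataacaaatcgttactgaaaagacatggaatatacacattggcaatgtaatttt

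The MCB box, ACGCGT, is the element bound by the MBF factor at many genes of the G1/S transition. It reads the same on both strands, and it contains the shorter core CGCG. In the window from 250 bases before to 50 bases after the annotated start, the MCB box was present at 2 of the 31 genes (6.45%), *dmc1*+ and *pfh1*+, and at 166 of 5106 genes in all (3.25%). The core was present at 11 of the 31 genes (35.5%) and at 18.3% of all genes. Of the genes with the largest increases, *rad8*+ and *fml1*+ held the core, and *rrp2*+ and *hrq1*+ did not. The 46 bases around each MCB box are shown in the same way, from chrII:3570545-3570590 (minus strand) for *pfh1*+ and chrI:3382045-3382090 (plus strand) for *dmc1*+. These matches describe letters in a window and are not evidence of binding.
pfh1: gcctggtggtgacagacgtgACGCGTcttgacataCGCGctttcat
dmc1: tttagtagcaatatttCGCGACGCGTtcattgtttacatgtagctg

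All 31 genes passed the filter on low counts and were tested with 4969 genes in all. With edgeR's quasi-likelihood test, thresholds of 0.05 for the adjusted *P* and 2-fold for the change, 4 were raised in *htb1-K119R* and 0 were lowered. Over all genes tested, 4.71% were raised and 3.64% were lowered by this rule. At an adjusted *P* below 0.05 with no fold threshold, 11 were raised and 1 was lowered, while 18.6% of all genes tested were raised and 19.3% were lowered. The median log2 fold change of the 31 genes was 0.41, and that of all genes tested was -0.01. Every *htb1-K119R* library lay above every WT library for 15 of the 31 genes and below for 2, and over all genes tested these shares were 25.0% and 23.9%. Without WT replicate 3, 17 of the 31 genes were raised and 2 lowered, and without WT replicate 2 or *htb1-K119R* replicate 1, 7 were raised and 0 lowered. The calls of *dna2*+, *mcm5*+, *rqh1*+, and *fml2*+ were lost in both of the latter fits. The call of *dna2*+ held only without WT replicate 1 among the 6 fits that left out a library, and that of *fml2*+ only without WT replicate 3. The call of *rqh1*+ was also lost without *htb1-K119R* replicate 2 or 3. In a bulk culture, a shift in the share of cells at a stage of the cell cycle and a shift in RNA per cell cannot be told apart. Because the group was selected on this contrast, nothing about the group is read from these counts.

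**Figure D1:**
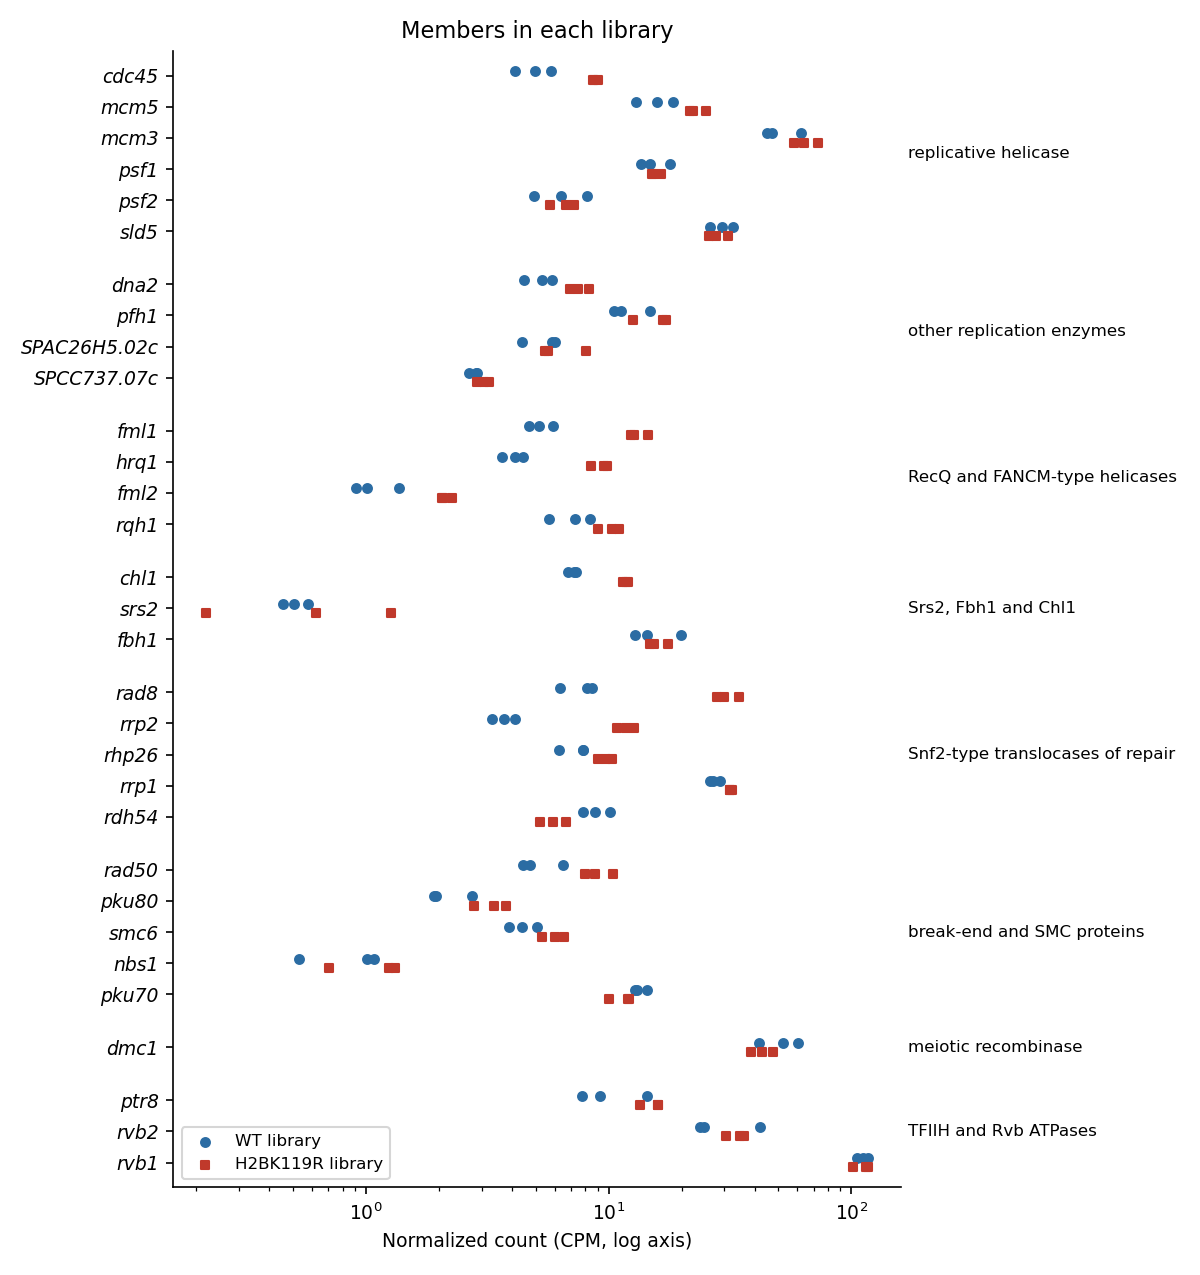
Normalized count (CPM, log axis) of each of the 31 genes in each of the 3 WT (circles) and 3 H2BK119R (squares) libraries, grouped by role. The libraries of rad8, rrp2, fml1, and hrq1 are separated by genotype, rdh54 is separated in the other direction, and the genotypes overlap for most subunits of the replicative helicase.

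The Snf2-type translocases held both the largest increase and the only call of a decrease. *rad8*+ encodes the relative of budding yeast Rad5, a ubiquitin ligase with a translocase domain that acts in postreplication repair. It was measured at 6.30, 8.54, and 8.18 CPM in WT replicates 1, 2, and 3 and at 27.9, 34.3, and 29.9 CPM in the *htb1-K119R* replicates. The lowest mutant library was thus above the highest WT library by a wide margin, with a log2 fold change of 1.99 (SE 0.151), a 3.98-fold difference. *rrp2*+ encodes a Rad5-type and Uls1-type translocase with a role in protecting cells from Top2 damage. It was at 3.72, 4.09, and 3.30 CPM in WT and at 10.8, 12.7, and 11.8 CPM in the mutant, a log2 fold change of 1.68 (SE 0.168), and the genotypes did not overlap. Its relative *rrp1*+ gave a log2 fold change of 0.22 (SE 0.103) and did not pass the test. *rhp26*+, the gene for the homolog of the transcription-coupled repair factor CSB, gave 0.41 (SE 0.158) and did not pass either.

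*rdh54*+ encodes a paralog of Rad54 with a role in recombination. It was at 8.81, 10.1, and 7.85 CPM in WT and at 5.22, 6.64, and 5.89 CPM in *htb1-K119R*, so each mutant library was below each WT library. Its log2 fold change was -0.59 (SE 0.174), and it passed the test. The call was lost without WT replicate 2, *htb1-K119R* replicate 1, or *htb1-K119R* replicate 3, and with library totals in place of TMM, where the log2 fold change was -0.42.

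All 4 RecQ and FANCM-type helicase genes passed the test as raised, with a median log2 fold change of 1.05, while 18.6% of all genes tested were raised. The 4 genes are 3367 to 5341 nt long, a length at which raised genes were more frequent (34.6% of the genes of at least 2738 nt), and *rqh1*+ and *fml2*+ were no longer called after the correction for length and GC content given further on. *fml1*+, the homolog of human FANCM, which reverses stalled forks and limits crossovers, was at 4.71, 5.89, and 5.16 CPM in WT. In the mutant libraries it was at 12.3, 14.6, and 12.7 CPM, a log2 fold change of 1.33 (SE 0.158). *hrq1*+ encodes the RecQ4-type helicase. It was at 3.64, 4.45, and 4.13 CPM in WT and at 9.54, 9.83, and 8.42 CPM in the mutant, a log2 fold change of 1.18 (SE 0.169), and neither gene overlapped between genotypes.

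*rqh1*+ encodes the relative of human BLM and showed the smallest change of the 4 genes. It was at 8.35, 5.67, and 7.27 CPM in WT and at 9.03, 11.0, and 10.3 CPM in the mutant, with a log2 fold change of 0.51 (SE 0.177). *fml2*+, the second FANCM-type gene, gave 0.92 (SE 0.279) from only 12 to 33 counts per WT library and 40 to 44 counts per mutant library. The calls of *rqh1*+ and *fml2*+ were lost in 9 of 15 and 8 of 13 alternative settings.

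Among Srs2, Fbh1, and Chl1, *chl1*+ alone passed the test. It encodes a helicase of the FANCJ and DDX11 family that supports sister chromatid cohesion. It was at 7.36, 7.18, and 6.77 CPM in WT and at 11.80, 11.42, and 11.98 CPM in the mutant, a log2 fold change of 0.73 (SE 0.139) with tight replicates in both genotypes. *fbh1*+, the F-box helicase that limits recombination, was at 12.8, 14.4, and 19.9 CPM in WT and at 17.6, 14.8, and 15.4 CPM in the mutant. The genotypes overlapped, and the log2 fold change was 0.01 (SE 0.171). *srs2*+, the antirecombinase, had between 4 and 27 counts per library, gave 0.46 (SE 0.562), and did not pass. Only a difference well above this SE could have passed at this depth.

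The replicative helicase did not move as a block. Of its 6 subunits in the group, *cdc45*+ and *mcm5*+ passed the test as raised and 4 did not pass. *cdc45*+, the subunit that joins the MCM ring and GINS, was at 5.77, 4.09, and 4.96 CPM in WT and at 8.70, 8.62, and 9.04 CPM in the mutant. Its log2 fold change was 0.83 (SE 0.174), the genotypes did not overlap, and the call held in 15 of 15 alternative settings. *mcm5*+, a subunit of the MCM ring, was at 13.0, 15.9, and 18.5 CPM in WT and at 25.1, 21.6, and 22.3 CPM in the mutant. Its log2 fold change was 0.53 (SE 0.147), and the call held in 8 of 15 settings.

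*mcm3*+ was at 45.02, 47.10, and 61.82 CPM in WT and at 73.2, 58.0, and 63.9 CPM in the mutant. WT replicate 3 lay within the mutant range, and the log2 fold change was 0.34 (SE 0.140), which did not pass. Without WT replicate 3 it was 0.50 and passed, and it also passed with the replicate number as a block, at 0.35. The GINS genes in the group overlapped between genotypes. *psf1*+ was at 14.80, 17.95, and 13.63 CPM in WT and 15.2, 16.4, and 15.1 CPM in the mutant, with a log2 fold change of 0.02 (SE 0.139). *psf2*+ was at 4.93, 6.39, and 8.18 CPM in WT and 6.68, 5.71, and 7.23 CPM in the mutant, with a log2 fold change of -0.01 (SE 0.207). *sld5*+ was at 29.2, 32.6, and 26.1 CPM in WT and 25.99, 31.08, and 27.73 CPM in the mutant, with a log2 fold change of -0.05 (SE 0.124). The sign of the last pair turned positive under several scalings.

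The other subunits of the CMG helicase, which do not carry the term, complete the picture. *mcm2*+ was counted 964, 1066, and 1779 times in WT and 1811, 1410, and 1532 times in the mutant, with a log2 fold change of 0.12 (SE 0.0938). *mcm4*+ was counted 166, 200, and 518 times in WT and 282, 203, and 259 times in the mutant, with a log2 fold change of -0.37 (SE 0.194). *mcm6*+ was counted 56, 59, and 155 times against 111, 65, and 104 times, with a log2 fold change of -0.09 (SE 0.238). None of these passed the test. In each the raw count of WT replicate 3 was the highest of the WT libraries, but that library also had the largest total. In CPM, WT replicate 3 was still the highest for *mcm4*+ and *mcm6*+ but not for *mcm2*+. *mcm2*+ was at 73.2, 76.5, and 73.5 CPM in WT and at 85.1, 77.4, and 79.1 CPM in the mutant, and the genotypes did not overlap. With the length and GC correction *mcm4*+ passed the test as lowered, at -0.61. *mcm7*+ was counted 88, 91, and 306 times in WT and 176, 105, and 179 times in the mutant, with a log2 fold change of -0.18 (SE 0.272), and did not pass. The fourth GINS gene, *psf3*+, did change. It was counted 312, 393, and 544 times in WT and 176, 224, and 187 times in the mutant, a log2 fold change of -1.30 (SE 0.166) that passed both thresholds.

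Per length, the CMG genes spanned a wide range. In the FPKM values the authors deposited, *sld5*+ was at 32.0 ± 3.78 and *mcm2*+ at 25.5 ± 4.85 in WT (mean ± SD, n = 3 libraries). *mcm5*+ was at 3.09 ± 1.14, *cdc45*+ at 2.27 ± 0.550, and *mcm6*+ at 1.65 ± 0.761 FPKM in WT. The SD ranges of the last 3 genes overlap. The genes were measured in the same libraries, so these SDs do not test whether the genes differ from each other. In *htb1-K119R*, *cdc45*+ was at 4.53 ± 0.285 FPKM and *psf3*+ at 12.4 ± 1.84 FPKM, against 27.3 ± 4.06 FPKM for *psf3*+ in WT.

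**Figure D2:**
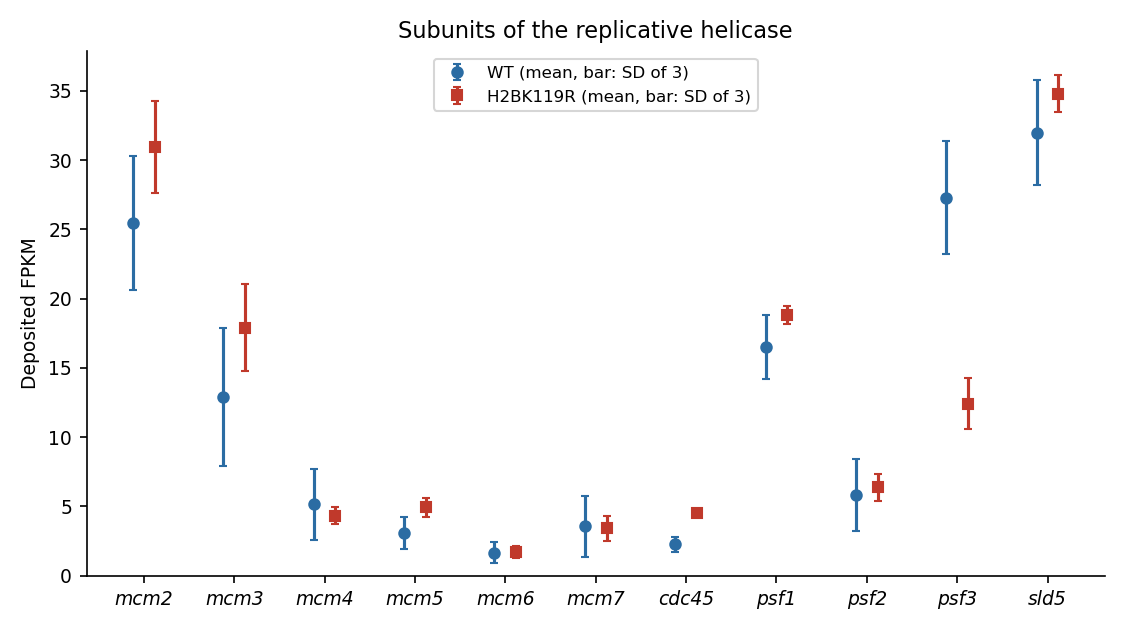
Deposited FPKM of the 11 genes for the MCM ring, Cdc45, and GINS in WT (circles) and H2BK119R (squares), as mean and SD of 3 libraries. The bars overlap for most genes, cdc45 is higher in H2BK119R, and psf3 is lower. The bars of mcm5 lie just apart, with H2BK119R higher.

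Of the remaining replication enzymes, *dna2*+ passed the test. It encodes the nuclease and helicase that trims flaps of Okazaki fragments and resects breaks. It was at 5.85, 5.31, and 4.46 CPM in WT and at 6.91, 7.47, and 8.32 CPM in the mutant, a log2 fold change of 0.55 (SE 0.178), the genotypes did not overlap, and the call held in 8 of 15 alternative settings. *pfh1*+, the Pif1-family helicase that helps forks through hard-to-replicate sites, was at 10.6, 11.2, and 14.9 CPM in WT and at 17.3, 12.6, and 16.8 CPM in the mutant. WT replicate 3 lay within the mutant range, and the log2 fold change of 0.34 (SE 0.176) did not pass. Without WT replicate 3 it was 0.52 and passed as raised.

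SPAC26H5.02c, annotated as a replication ATPase, was at 5.997, 4.379, and 5.864 CPM in WT and 8.04, 5.60, and 5.47 CPM in the mutant, with a log2 fold change of 0.23 (SE 0.214). SPCC737.07c, annotated as a helicase associated with DNA polymerase alpha, was at 2.66, 2.87, and 2.85 CPM in WT and 3.06, 2.86, and 3.20 CPM in the mutant, with a log2 fold change of 0.12 (SE 0.207). Both overlapped between genotypes.

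The break-end and SMC proteins hold and process broken DNA. *rad50*+, the ATPase of the Mre11 complex, was at 6.45, 4.74, and 4.42 CPM in WT and at 8.74, 10.4, and 7.95 CPM in the mutant. Its log2 fold change was 0.81 (SE 0.196), it passed the test, and the genotypes did not overlap. *nbs1*+, which encodes its partner, gave 0.27 (SE 0.390) from 7 to 26 counts per library and did not pass.

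*pku70*+ was at 14.4, 12.8, and 13.1 CPM in WT and at 11.99, 10.05, and 12.09 CPM in the mutant, with a log2 fold change of -0.24 (SE 0.139). *pku80*+, for the other Ku subunit, gave 0.56 (SE 0.248), and *smc6*+, of the Smc5-Smc6 complex, gave 0.42 (SE 0.187). None of these 3 genes passed the test.

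*dmc1*+, the meiotic recombinase, was at 60.6, 52.5, and 41.8 CPM in WT and at 38.8, 47.6, and 43.0 CPM in the mutant. WT replicate 3 lay within the mutant range, and the log2 fold change of -0.26 (SE 0.143) did not pass. Without WT replicate 3 it was -0.39 and passed as lowered. *ptr8*+, for the XPB helicase of TFIIH, was at 9.19, 7.75, and 14.5 CPM in WT and at 15.93, 13.40, and 16.01 CPM in the mutant, with a log2 fold change of 0.51 (SE 0.212), and did not pass. Without WT replicate 3 it was 0.84 and passed, and it also passed with the replicate number as a block, at 0.56. *rvb1*+ and *rvb2*+ encode the AAA+ ATPases of the INO80 and SWR1 complexes. *rvb1*+ was at 111.3, 105.5, and 117.2 CPM in WT and at 115.3, 101.2, and 117.3 CPM in the mutant, nearly the same in both, with SE 0.102 on the log2 scale. *rvb2*+ gave 0.16 (SE 0.196), with WT replicate 3 above all other libraries.

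The partner genes of these enzymes were counted beside the shares over all genes tested, 18.6% raised and 19.3% lowered at an adjusted *P* below 0.05, and nothing is read from the counts of the lists. Of 12 other genes listed for CMG loading and firing, 1 was raised and 1, *psf3*+, was lowered. This list includes a gene for an inhibitor of ribonucleotide reductase. Of 34 genes listed for fork proteins, 7 were raised and 6 lowered. The list of 34 includes genes of ribonucleotide reductase. Past both thresholds were the flap endonuclease gene *rad2*+ (log2 fold change 2.22, SE 0.141), *top1*+ (1.13, SE 0.198), and the RNase H2 gene *rnh201*+ (-1.30, SE 0.189). Of 26 partners of the repair helicases, 5 were raised and 5 lowered, and the exonuclease gene *exo1*+ (1.80, SE 0.187), *rad52*+ (1.03, SE 0.128), and *rmi1*+ (1.22, SE 0.370) passed both thresholds. The value of *rmi1*+ rested on few libraries, since it was 1.88 without WT replicate 3 and 0.87 without WT replicate 1, and the call was lost without WT replicate 2 or *htb1-K119R* replicate 1 or 2.

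Of 13 genes listed for TFIIH and nucleotide excision repair, 3 were raised and 4 lowered beside the same shares over all genes, with the endonuclease gene *rad13*+ at 1.43 (SE 0.214) and *tfb1*+ at -1.05 (SE 0.248) past both thresholds. Of the 6 genes of the origin recognition complex, which loads the MCM ring, 2 were raised and 1 was lowered. *orc1*+ was counted 165, 208, and 447 times in WT and 3532, 3795, and 3723 times in the mutant, a log2 fold change of 3.61 (SE 0.158). *orc4*+ was counted 153, 162, and 289 times in WT and 1849, 1794, and 1695 times in the mutant, a log2 fold change of 2.95 (SE 0.109).

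The 31 genes, from 824 to 5341 nt long, tend to be long, a property that the rule did not use. Their median length in ASM294v3 was 2843 nt, against 1715 nt over all genes tested, and 26 of the 31 (83.9%) were longer than that median. Their median level in WT was also lower, at 2.25 FPKM against 11.8 FPKM over all genes tested. Over all genes, the log2 fold change rose with length. The median log2 fold change was -0.28 in the shortest group of 5 equal groups of genes by length (219 to 1041 nt), -0.13, -0.02, and 0.08 in the next groups, and 0.29 in the longest group (2738 to 15002 nt). In the longest group 34.6% of genes passed the test as raised, and in the shortest group 8.43% did. Of the 31 genes, 19 lay in the longest group, and 10 of these were among the 11 raised. The median log2 fold change of these 19 genes was 0.51, against 0.29 for all genes of that length group. Because the 31 genes were selected on this contrast, nothing is read from this difference. Across the 31 genes the log2 fold change and log2 length had a Pearson correlation of 0.57, and across 4911 genes it was 0.26. Genes in these correlations share the same 6 libraries and are not independent.

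**Figure D3:**
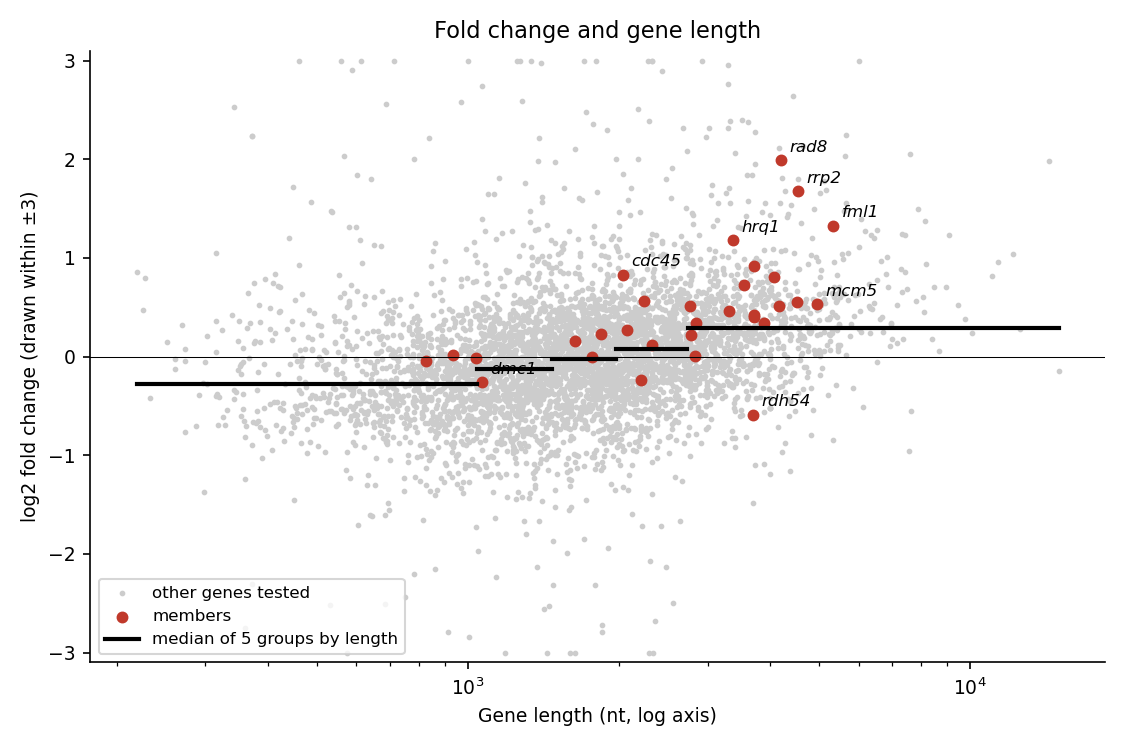
Log2 fold change (H2BK119R over WT) against gene length in ASM294v3 (log axis), for the genes tested (small points, drawn within ±3) and the 31 genes (large points), with the median of each of 5 equal groups of genes by length as a black line. The median rises from -0.28 in the shortest group to 0.29 in the longest, where 19 of the 31 genes lie.

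The length trend was also visible between libraries. The median log2(CPM + 1) of the longest group minus that of the shortest was -1.13, -1.14, and -0.62 in WT replicates 1, 2, and 3. In the mutant replicates it was -0.23, -0.57, and -0.33. The trend therefore differed between genotypes and also within WT, and whether RNA quality, library preparation, or the cells gave it was not tested.

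With each library corrected for gene length and GC content by a smooth trend, 6 of the 31 genes passed the test as raised, namely *rad8*+, *rrp2*+, *hrq1*+, *fml1*+, *cdc45*+, and *chl1*+, and *rdh54*+ was lowered. The median log2 fold change of the 31 genes was 0.19 after correction. Those of *rad8*+ and *rrp2*+ were 1.67 and 1.30 and stayed over 2-fold, while those of *hrq1*+ and *fml1*+ were 0.95 and 0.90. *rdh54*+ moved to -0.88. *mcm3*+ and *mcm5*+ were at 0.01 and 0.08, and *rqh1*+ and *dna2*+ at 0.15 and 0.20. *rad50*+ and *fml2*+ were at 0.50 and 0.68, and none of these 6 genes passed the test after correction. *cdc45*+, with a length of 2034 nt, changed little, at 0.79. Of the partner genes past both thresholds, *top1*+ and *rad52*+ fell to 0.95 and 0.97 but stayed called. The others of these stayed called and over 2-fold. Among partner genes changed by less than 2-fold, calls were both lost and gained.

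**Figure D4:**
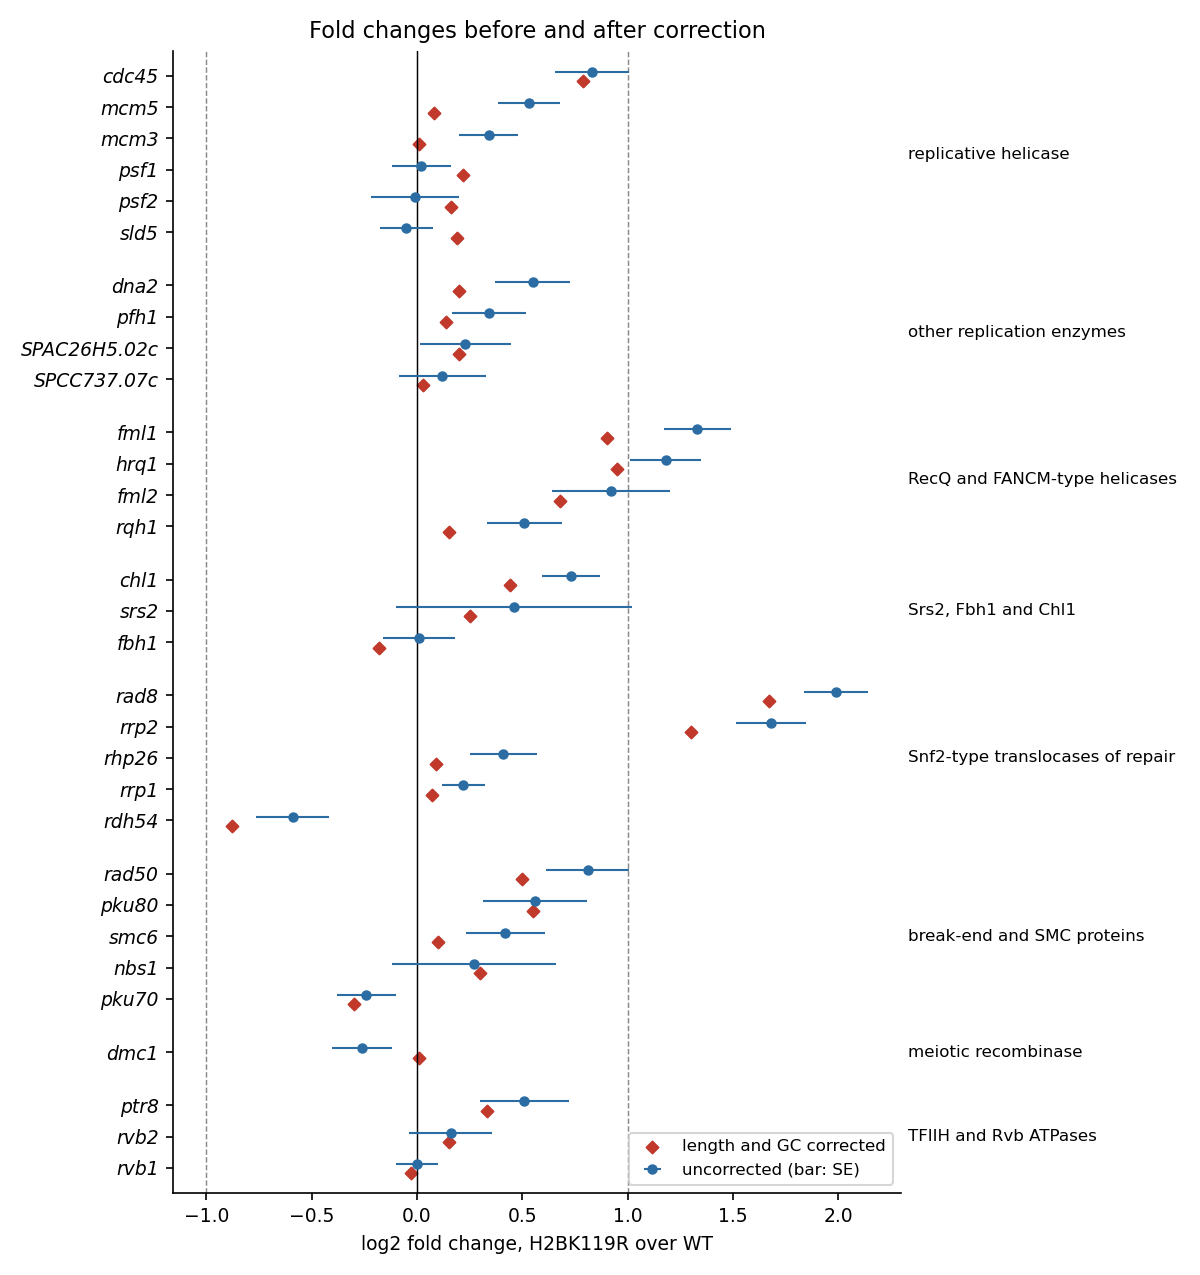
Log2 fold change (H2BK119R over WT) of the 31 genes by role, uncorrected (circles, bar: SE) and after correction for gene length and GC content (diamonds), with dashed lines at a 2-fold change. After correction rad8 and rrp2 remain beyond the upper line, and mcm3 and mcm5 lie near 0.

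The genes were spread over the genome, with 16 on chromosome I, 10 on chromosome II, and 5 on chromosome III. Their median GC content was 37.0%, against 37.2% over all genes tested. ASM294v3 annotates a gene on the other strand that overlaps 30 of the 31 genes (96.8%, against 89.6% over all genes tested), and for 17 (54.8%) a coding gene, against 37.3% over all genes tested. The use of strand in the counting is not given in the sources used here, so reads from such pairs may not be separable. *rrp2*+ (chrII:3839569-3844105) shares 4116 bases with *nta1*+, whose log2 fold change was 0.26. *fml1*+ (chrI:1470834-1476275) shares 1383 bases with SPAC9.07c, at -0.01, and 1183 bases with SPAC9.06c, at -0.31. *fml2*+ shares 3400 bases with SPAC20H4.05c, at -0.29, *rdh54*+ shares 2432 bases with *atf31*+, at 0.36, and *mcm5*+ shares 2673 bases with *trk1*+, at 0.11. None of these overlapping genes passed the test. Of the coding genes that overlap a called gene of the group, *emc5*+ and *pgp2*+ passed as lowered. *emc5*+, at -0.77, shares 4 bases with *rad50*+, and *pgp2*+, at -0.58, shares 394 bases with *dna2*+. *rad8*+ (chrI:170489-174692) and *hrq1*+ (chrI:4113673-4117214) overlap noncoding genes on the other strand.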

How the data were processed

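The 6 libraries were grouped by genotype from the sample titles. Per the study's methods, the authors enriched mRNA with oligo(dT), discarded reads from rRNA, and aligned the others by HISAT2. The counts the authors deposited are whole numbers and unnormalized, and the deposited FPKM values were made with StringTie. The submitters' processing notes also name RSEM, and which tool made the counts is not given in the sources used here. The authors' deposited log2 fold changes, p-values, and FDR values were not used, nor were the 12 per-sample columns of a second table, whose rows repeat part of the first.

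Counts were fitted with edgeR 4.0.16 (R 4.3.3) with TMM normalization, filterByExpr, genotype as the only factor, and the quasi-likelihood test, with Benjamini-Hochberg adjustment over all 4969 genes tested. CPM values are TMM-normalized. The SE is implied by the F statistic. Gene length, GC content, and sequences come from ASM294v3 for 5107 of 5184 IDs (98.5%). The length implied by deposited counts and FPKM was within 10% of the ASM294v3 length for 82.9% of genes tested, after scaling to a median ratio of 1. The fits were tested on simulated data with a single fixed dispersion. Fold changes were planted there only in genes above a set level. Many genes of the group lie below that level, and the simulation does not cover changes in them. P-values measure only the spread between these libraries, one strain per genotype.

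The genes and lists were chosen with earlier results of these data known. Every gene of the group is named. Its genes for the CMG helicase and the fork, those past both thresholds, and the highest and lowest of each role are given in each library, as are the other MCM genes. Partner genes are named where they pass both thresholds, mostly by fold change and SE. Alternatives were DESeq2 1.42.0, RLE, library totals, no filter, a replicate block, length and GC offsets (lowess span 0.3), limma 3.58.1 on log2(FPKM + 1) and log2(FPKM + 0.1) at a mean FPKM of at least 1, leaving out each library, and a 150-base promoter window.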

Additional observations from a re-analysis of the deposited data

How the results depend on the processing

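DESeq2, RLE normalization, and the absence of a low-count filter changed no direction or call of the 27 genes given in full. The count raised over 2-fold was 2 with the length and GC correction, alone and with the replicate block, and 2 in limma on log2(FPKM + 1), and it ranged from 4 to 5 when single libraries were left out. The count raised at an adjusted *P* below 0.05 was 6 with the correction, alone and with the block, and ranged from 7 (without WT replicate 2 or *htb1-K119R* replicate 1) to 17 (without WT replicate 3). The count lowered was 0 with library totals and in both limma fits, and ranged from 0 to 2 with libraries left out. The median log2 fold change of the group was 0.56 with library totals, 0.19 with the correction, alone and with the block, and 0.54 in limma on log2(FPKM + 0.1). Library totals moved the median of all genes to 0.15, and raised genes were then 66.9% of calls, against 49.1%.

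By role, library totals gave medians of 1.19 (RecQ and FANCM-type), 0.56 (Snf2-type), 0.61 (Srs2, Fbh1, and Chl1), 0.59 (break-end), 0.44 (other replication), and 0.33 (replicative helicase). The correction gave 0.79, 0.09, 0.25, and 0.17 for RecQ and FANCM-type, Snf2-type, Srs2, Fbh1, and Chl1, and other replication genes, and 0.01 for *dmc1*+. With libraries left out the medians ranged as follows: 0.96 to 1.17 (RecQ and FANCM-type helicases), 0.31 to 0.46 (Snf2-type translocases of repair), -0.07 to 0.73 (Srs2, Fbh1, and Chl1), 0.01 to 0.48 (TFIIH and Rvb ATPases), 0.35 to 0.51 (break-end and SMC proteins), -0.39 to -0.13 (meiotic recombinase), 0.19 to 0.38 (other replication enzymes), 0.12 to 0.35 (replicative helicase).

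Signs turned for genes that did not pass the test. With the correction, alone and with the block, *dmc1*+ was at 0.01, *mcm2*+ at -0.07, *sld5*+ at 0.19, *fbh1*+ at -0.18 and -0.17, and *psf2*+ at 0.16 and 0.19. With library totals *mcm6*+ was at 0.04, *psf2*+ and *sld5*+ at 0.12, and *rvb1*+ at 0.15. In limma with pseudocounts of 1 and 0.1, *mcm6*+ was at 0.06 and 0.10, *mcm7*+ at 0.03 and 0.06, *psf2*+ at 0.17 and 0.20, *rvb1*+ at 0.17 and 0.18, and *sld5*+ at 0.12 and 0.13. With libraries left out, *fbh1*+ ranged from -0.12 to 0.22, *mcm6*+ ranged from -0.19 to 0.16, *mcm7*+ ranged from -0.34 to 0.23, *psf1*+ ranged from -0.07 to 0.14, *psf2*+ ranged from -0.17 to 0.21, *rvb1*+ ranged from -0.04 to 0.04, and *sld5*+ ranged from -0.14 to 0.03. The MCB box was in 1 window of the group in the last 150 bases before the start. The cause of these changes was not tested.

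The replicate number was checked as a block. Same-numbered libraries correlated at -0.219, 0.335, and 0.308 in their deviations from the genotype means, and not every library correlated best with its own number, so the numbers were not taken as pairs. With the replicate block, 13 genes of the group were raised and 1 lowered, with a median log2 fold change of 0.35, and *psf2*+ turned to 0.02.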

Other observations

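The genes left out by the rule carry the same annotation and include larger increases. The CHD1-type remodeler gene *hrp1*+ was counted 205, 191, and 354 times in WT and 1301, 1177, and 1303 times in *htb1-K119R*, a log2 fold change of 2.14 (SE 0.108). *fft2*+, of the Fun30 family, gave 1.56 (SE 0.177), and both passed the test and exceed a 2-fold change. *swr1*+, *snf21*+, and *ino80*+ passed the test at 0.95, 0.86, and 0.64, whereas *fft1*+, *fft3*+, and *snf22*+ did not pass. These values are uncorrected. With the length and GC correction *swr1*+ and *ino80*+ were no longer called, at 0.60 and 0.18. *snf21*+, *hrp1*+, and *fft2*+ stayed called, at 0.51, 1.71, and 1.19. The subtelomeric helicase genes *tlh1*+ and *tlh2*+ gave 2.25 (SE 0.479) and 3.64 (SE 0.460) from at most 16 counts per WT library, while the third subtelomeric copy, SPAC212.06c, gave -0.14 (SE 0.336) and did not pass. *tlh1*+ and *tlh2*+ are near-identical copies, so their reads may be split between them.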
